A study of Mus musculus with 2 samples.

Results

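T cells that carry natural killer (NK) receptors were taken from single-cell RNA sequencing of the stromal vascular fraction (SVF) of gonadal white adipose tissue (gWAT). They were chosen by raw unique molecular identifiers (UMIs), each of which stands for one captured transcript. A cell had to hold at least 2 UMIs of the CD3 genes Cd3d, Cd3e and Cd3g in sum, and at least 2 UMIs in sum of Klra1, Klra7, Klrb1c, Cd160 and Xcl1. Cells with any Foxp3 or Cd79a UMI, with 10 or more Dcn UMIs, or with more than 2 UMIs of C1qa, C1qb and C1qc were left out. The rule found 214 cells among the 4839 that showed 500 or more genes and no more than 10% of UMIs from mitochondrial genes, out of 11252 barcodes in all. They are called NK receptor T cells here.

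The study deleted Pgam1, an enzyme of glycolysis, in adipocytes and compared the mutants with littermates. One library came from male Adipo-Pgam1 KO mice (Adipoq-Cre+; Pgam1 flox/flox) and 1 from male littermate controls, which the labels call wildtype and the methods give as Pgam1 flox/flox without Adipoq-Cre. All were 13 weeks old on a C57BL/6 background, and the number of mice behind each library was not given in the sources used here. The Adipoq promoter drives Cre in adipocytes, which float off when the SVF is prepared, so the cells described here were not the target of the deletion. With 1 library per genotype no test was possible: genotype and library cannot be told apart, and every interval below is a 95% interval that covers counting error only.

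NK cells and T cells both kill target cells and secrete interferon gamma, but only T cells carry a rearranged antigen receptor, whose alpha and beta (or gamma and delta) chains signal through CD3. NK cells are steered by germline receptors encoded largely in the NK gene complex: the Ly49 proteins (Klra genes), the NKR-P1 proteins (Klrb1 genes) and the CD94/NKG2 proteins (Klrd1, Klrc and Klrk1). Several T cell populations also express these receptors, among them invariant NKT cells, some gamma delta T cells and innate-like or antigen-experienced CD8 T cells, and such cells are found in liver, gut and adipose tissue.

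Of the 214 cells, 148 came from the littermate control library, 3.81% (3.23 to 4.46, Clopper-Pearson) of its 3881 kept cells, and 66 from the Adipo-Pgam1 KO library, 6.89% (5.37 to 8.68) of its 958. The 2 libraries held 8522 and 2730 barcodes, and 42859406 and 13821581 UMIs. Depth per NK receptor T cell was lower in the control, with a median of 4685 UMIs (873 to 16249) against 6726.5 (2015 to 20187) in the KO. The libraries shared 9 barcodes, 1 of which belonged to a control NK receptor T cell. High doublet scores were given to 3 of the control cells and 0 of the KO cells.

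2 classes were set beside them, chosen by the same rule with 1 condition changed. CD3-negative NK cells held no CD3 UMI (213 control cells, median 4318 UMIs, and 46 KO cells, median 5798). T cells without NK receptors held no UMI of the 5 NK receptor genes (226 control cells, median 4663.5, and 117 KO cells, median 6584). Levels are in CPM, the UMIs of a gene divided by all UMIs of its class and multiplied by 1e+06, and ratios are log2 ratios of CPM.

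**Figure D1:**
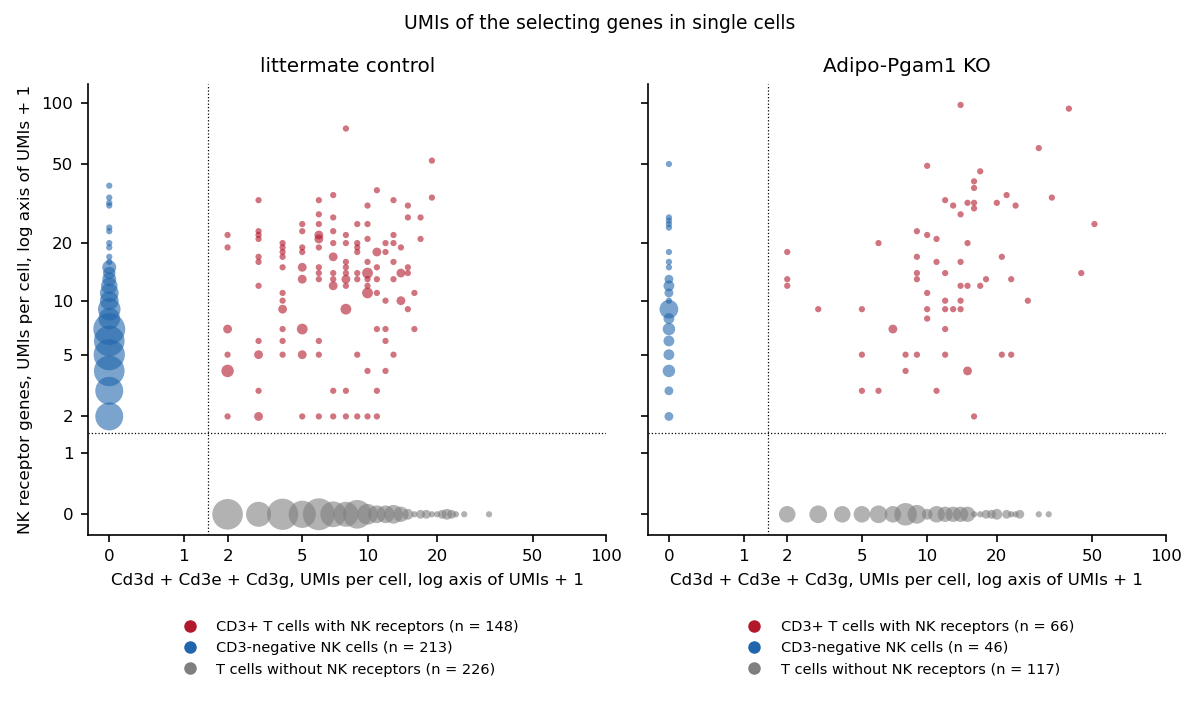
Each NK receptor T cell, CD3-negative NK cell and T cell without NK receptors by its summed UMIs of Cd3d, Cd3e and Cd3g (x axis) and of Klra1, Klra7, Klrb1c, Cd160 and Xcl1 (y axis), 1 panel per library, with points sized by the number of cells at that place. The NK receptor T cells (CD3+ T cells with NK receptors in the legend) lie at 2 or more UMIs on both axes, where the control cells have a median of 7 CD3 UMIs and 14 NK receptor UMIs and the KO cells 13 and 13.

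The genes that chose the cells are a description and no finding. CD3 UMIs summed to a median of 7 per cell in the control (2 to 19) and 13 in the KO (2 to 51). NK receptor UMIs had a median of 14 (2 to 75) and 13 (2 to 98). At the edges, 10 control and 3 KO cells held exactly 2 CD3 UMIs, and 10 and 1 held exactly 2 NK receptor UMIs. Just outside, 10 and 2 cells had 1 CD3 UMI, and 17 and 14 had 1 NK receptor UMI. The medians lay well past both edges, and 44 control cells (29.7%) and 15 KO cells (22.7%) held all 5 NK receptor genes.

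Of the markers given with the label, Cd3d and the NK receptor genes were used by the rule, so their shares are fixed by it in part and check nothing. Among control cells, 86.5% held a Cd3d UMI, 73.6% a Klra1 UMI, 75.7% Klra7, 58.8% Cd160 and 72.3% Xcl1, and the KO shares were 89.4%, 40.9%, 60.6%, 66.7% and 83.3%. Ccl5, a chemokine of effector T and NK cells, was the only marker the rule did not use. It was found in 96.6% and 98.5% of the cells against 24.3% and 21.4% of T cells without NK receptors. CD3-negative NK cells had it as often, in 98.6% and 97.8%, so it does not tell the cells from NK cells. Of the rule genes Klra1 differed most between the libraries: its level was 911 CPM (844 to 983) in the control and 324 (275 to 378) in the KO, a log2 ratio of -1.49 (-1.75 to -1.24), while Klra7 (736 and 688 CPM), Klrb1c (459 and 459) and Cd160 (219 and 221) lay close together. In cells with a Klra1 UMI a Klra7 UMI was also common, in 94 of 109 control and 25 of 27 KO cells, against 18 of 39 and 15 of 39 without one.

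The alpha chain of the T cell receptor separated these cells from NK cells. Trac, the constant region of the alpha chain (GRCm38, chr14:54220521-54224206, plus strand), stood at 394 CPM (350 to 442) in control NK receptor T cells and 725 (651 to 804) in KO cells. CD3-negative NK cells held 6.78 CPM (2.72 to 14.0) and 3.54 (0.0897 to 19.7), from 7 and 1 UMIs. A Trac UMI was found in 73.0% and 84.8% of NK receptor T cells and in 3.29% and 2.17% of NK cells. Trbc2, a constant region of the beta chain, was in 93.9% and 90.9% of NK receptor T cells, but also in 36.2% and 52.2% of NK cells.

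Trbc1, the other beta constant region, was common in NK cells too and differed between the libraries. It was found in 75.7% of control NK receptor T cells (67.9 to 82.3) and 34.8% of KO cells (23.5 to 47.6), against 80.8% and 93.5% of NK cells. In CPM the control cells had 539 (488 to 595) and the KO cells 350 (300 to 407). After thinning each cell to 2000 UMIs the shares were 57.9% and 21.2%, in the same order. Within the last 500 bases of Trbc1 transcripts, 28.0% of windows of 96 bases also occur in Trbc2, so a part of their reads cannot be told apart. Klra1 went with Trbc1 in the control, where 91 of 112 cells with a Trbc1 UMI had a Klra1 UMI (81.3%, 72.8 to 88.0) and 18 of 36 without it did (50.0%, 32.9 to 67.1). The KO shares were 47.8% (26.8 to 69.4) and 37.2% (23.0 to 53.3).

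Of the NK receptor T cells, 29.7% in the control and 59.1% in the KO held a UMI of Trdc or of a gamma chain constant region (22.1% and 40.9% thinned), against 31.5% and 43.5% of NK cells. Trdc, the delta constant region, had a UMI in 12.2% of control and 10.6% of KO NK receptor T cells, below its share in NK cells (25.8% and 32.6%). In CPM the order was the other way, at 143 against 71.6 in the control and 81.9 against 67.3 in the KO. Counting cells by both chains, 102 control cells held Trac without Trdc, 12 held Trdc without Trac, 6 held both and 28 held neither. The KO numbers were 55, 6, 1 and 4. Most cells in either library thus carried alpha chain transcripts without delta chain transcripts.

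Tcrg-C2, a gamma chain constant region, was more often found in KO cells. Its share was 16.2% in the control (10.7 to 23.2) and 40.9% in the KO (29.0 to 53.7), and 7.59% and 21.2% after thinning. NK cells had 0 of 213 control cells with a UMI, which allows a share of up to 1.41%, and 1 of 46 KO cells. Among variable segments the commonest in NK receptor T cells was Trgv2, with 17 UMIs in 12 control cells and 37 UMIs in 20 KO cells. T cells without NK receptors held both genes too, with 38 and 49 Trgv2 UMIs and a Tcrg-C2 UMI in 17.7% and 12.8% of cells.

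No single alpha beta receptor dominated the variable segments that were read. The control cells held 30 UMIs of alpha and beta variable segments, spread over 16 of 163 segments, and the KO cells 27 UMIs over 17, with at most 4 UMIs of any segment in a library. Segments used by invariant NKT cells gave 3 UMIs in each library, and Traj18, the joining segment of their alpha chain, had 0. Zbtb16, which encodes PLZF, the factor that directs invariant NKT cell development, had a UMI in 3.38% of the control cells and 9.09% of the KO cells, against 11.9% and 9.40% of T cells without NK receptors. Sequencing read transcript 3′ ends, where variable and joining segments are seldom covered, so their low counts limit what can be said of either.

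Nearly all the cells were without a detected coreceptor. No UMI of Cd8a, Cd8b1 or Cd4 was found in 138 of 148 control cells (93.2%, 87.9 to 96.7) and 54 of 66 KO cells (81.8%, 70.4 to 90.2). A Cd8a or Cd8b1 UMI was in 8 and 10 cells and a Cd4 UMI in 2 and 2. T cells without NK receptors, read at a similar depth, had a Cd8 UMI in 23.9% and 18.8% of cells and a Cd4 UMI in 34.5% and 46.2%. Cd4 was 141 CPM there against 5.45 (1.48 to 14.0) in control NK receptor T cells, a log2 ratio of -4.70 (-6.59 to -3.31), and the KO ratio was -3.57 (-4.91 to -2.49).

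**Figure D2:**
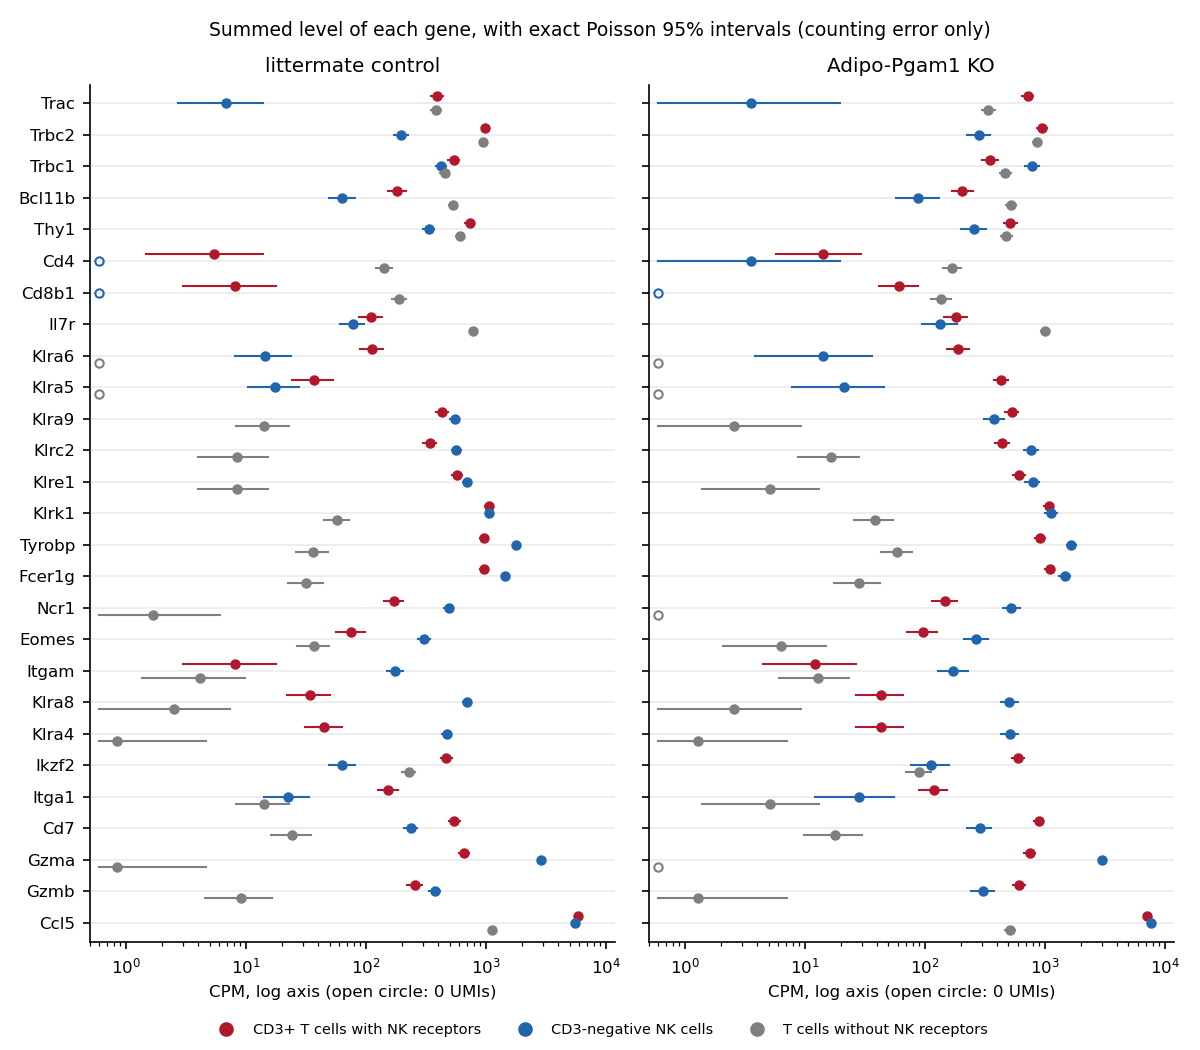
Level of 27 genes (CPM, log axis) in NK receptor T cells (CD3+ T cells with NK receptors in the legend), CD3-negative NK cells and T cells without NK receptors, 1 panel per library, with exact Poisson 95% intervals; open circles mark genes with 0 UMIs. For Trbc2 the NK receptor T cells sit beside the T cells without NK receptors in both panels, for Trac beside them in the control and above them in the KO, for Klrk1, Klre1 and Ccl5 beside the NK cells, and for Itgam, Klra8 and Klra4 well below the NK cells.

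Across the transcriptome a smaller share of measured genes lay past 2-fold against NK cells than against other T cells in either library. Against NK cells, 90 of 5227 measured genes were at least 2-fold higher in the control (1.72%) and 167 at least 2-fold lower (3.19%). Measured means at least 50 UMIs over both classes, with the rule genes counted. In the KO, 84 of 2560 were higher (3.28%) and 66 lower (2.58%), so 56.0% of the differing genes were higher, a share that became 68.9% (111 higher, 50 lower) when TMM factors shifted the median log2 ratio from -0.02 to 0.09. Against T cells without NK receptors, 232 of 5490 were higher in the control (4.23%) and 254 lower (4.63%), and 241 of 3856 (6.25%) and 229 (5.94%) in the KO. The rule set the CD3 genes at 0 in NK cells, and its NK receptor genes at 0 in T cells without NK receptors. Those genes add to the higher counts by choice of the cells. The classes differ in size between the libraries, so the counts are not compared across them.

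The libraries repeated a part of these genes. Of 2539 genes outside the rule measured against NK cells in both, 34 were higher in the control and 69 in the KO. Of these 23 were shared, which is 67.6% of the control genes and 33.3% of the KO genes. Lower genes numbered 47 and 66, with 34 shared (72.3% and 51.5%). Against T cells without NK receptors, 3810 genes outside the rule were measured in both. Of these 110 were higher in both libraries (73.8% of the control genes and 48.9% of the KO genes) and 112 lower (73.2% and 51.6%).

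**Figure D3:**
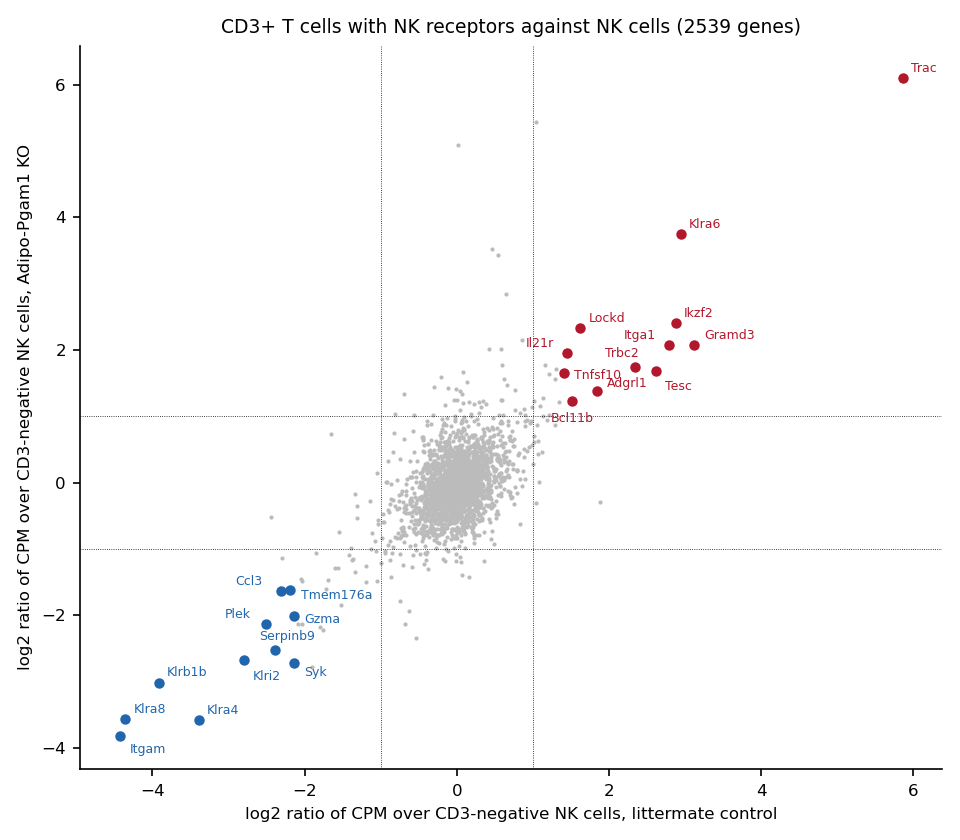
Log2 ratio of CPM in NK receptor T cells over CD3-negative NK cells, littermate control (x axis) against Adipo-Pgam1 KO (y axis), for the 2539 genes with at least 50 UMIs in both comparisons and no rule gene; counts under 3 UMIs were set to 3 and dotted lines mark 2-fold. Labels mark genes among the 12 most different in each direction, from Trac at 5.86 and 6.09 to Itgam at -4.43 and -3.82.

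The NK lineage genes summed lower than in NK cells. The 18 genes, Klrb1c of the rule among them, were at 4081 CPM against 9936 in the control and 4230 against 10344.5 in the KO. A gene near 0 in NK receptor T cells could pass the count minimum only by being high in NK cells. No count of members is therefore given, and the sums are a description. Itgam, the integrin alpha M that mature NK cells gain, was at 8.17 CPM (3.00 to 17.8) against 176 in the control and 12.3 (4.51 to 26.7) against 174 in the KO. Eomes, a T-box factor of NK and memory CD8 T cells, had log2 ratios of -2.03 (-2.47 to -1.61) and -1.48 (-2.04 to -0.94). Ncr1, which encodes the NK receptor NKp46, had -1.52 (-1.81 to -1.23) and -1.84 (-2.27 to -1.42). These 3 genes were lower than in NK cells in both libraries.

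Ncr1 was still far above other T cells. A UMI was found in 60 of 148 control NK receptor T cells (40.5%, 32.6 to 48.9) and 23 of 66 KO cells (34.8%, 23.5 to 47.6), against 2 of 226 and 0 of 117 T cells without NK receptors (the latter allows up to 2.56%), and 83.1% and 84.8% of NK cells. Trac was found in 41 of 60 control cells with an Ncr1 UMI (68.3%, 55.0 to 79.7) and 67 of 88 without one (76.1%, 65.9 to 84.6). KO cells had 14 of 23 (60.9%, 38.5 to 80.3) and 42 of 43 (97.7%, 87.7 to 99.9). Tbx21, which encodes T-bet, did not follow Ncr1 and Eomes: it was 183 CPM against 200 in control NK cells and 192 against 188 in the KO.

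Tyrobp and Fcer1g, adaptors that NK receptors signal through, lay between NK cells and other T cells, while others on the list did not. Tyrobp (DAP12) was at 970 CPM (900 to 1044) in control NK receptor T cells, 1787 in NK cells and 35.9 in T cells without NK receptors, and the KO values were 911 (828 to 1000), 1675 and 59.0. Fcer1g, the Fc receptor gamma chain, was at 973, 1435 and 31.8 CPM, and at 1106, 1466 and 28.2 in the KO. Syk, the kinase that binds both adaptors, was 2-fold lower or more than in NK cells, with log2 ratios of -2.14 (-2.83 to -1.51) and -2.72 (-3.83 to -1.74). Hcst (DAP10), the adaptor of NKG2D, was above NK cells, with 0.61 (0.47 to 0.76) and 0.35 (0.09 to 0.61). Cd247 (CD3 zeta) had 0.33 and -0.05, and was lower than in T cells without NK receptors, with -0.78 and -1.15. The T cell counterpart of Syk, Zap70, had 0.59 (0.21 to 0.98) and 0.70 (0.16 to 1.28).

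Killer lectin-like receptors did not all go the same way against NK cells. The 22 genes of the list, Klra1, Klra7 and Klrb1c of the rule among them, summed to 5869 CPM against 7372 in the control. In the KO they summed to 6188 against 7880. No count of members is given, since a gene near 0 in 1 class could pass the count minimum only through the other. Klrk1 (NKG2D) was level with NK cells, at 1057 against 1069 CPM and 1079 against 1133. Klrd1 (CD94) had log2 ratios of -0.37 and -0.34 and Klre1 -0.28 and -0.37. Klra4 (-3.39 and -3.58), Klra8, the activating receptor Ly49H (-4.36 and -3.57), Klrb1b (-3.92 and -3.01) and Klri2 (-2.79 and -2.66) were far lower. Klra3 had -2.08 and -2.12, and Klrc1 (NKG2A) -1.85 and -1.06.

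Klra6 (chr6:130013033-130026954, minus strand) was higher than in NK cells in both libraries, at 112 CPM (88.8 to 139) against 14.5 in the control and 190 (154 to 233) against 14.2 in the KO. A UMI was in 29.1% and 56.1% of NK receptor T cells, 4.69% and 6.52% of NK cells, and none of 226 and 117 T cells without NK receptors. Klra5 had 36.8 CPM (24.2 to 53.5) against 17.4 in the control and 432 (376 to 494) against 21.2 in the KO, so it stood out in 1 library. Klra9, by contrast, was near the NK level in both (log2 ratios -0.35 and 0.49). Members of the Klra family are close in sequence, and the share of 96-base windows at their 3′ ends that also occur elsewhere was 0% for Klra1, Klra4, Klra5, Klra6 and Klra8, 3.82% for Klra3, 4.74% for Klra7 and 9.17% for Klra9.

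The genes that lay on either side of NK cells have a promoter stretch in common. The stretch is shown because these neighbours on chromosome 6, all on the minus strand, gave opposite ratios. RefSeq promoter sequences (GRCm38.p6) hold a stretch that begins agca in 7 of the measured Klra genes, printed 5′ to 3′ on the strand of the gene, for 60 bases or up to the start site where that came first. Capitals mark CTTTG, the core of the sites bound by TCF-1 (the Tcf7 product), a T cell factor that Ly49 promoters are known to use.
Klra6: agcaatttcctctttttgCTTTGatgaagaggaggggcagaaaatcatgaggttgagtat
Klra5: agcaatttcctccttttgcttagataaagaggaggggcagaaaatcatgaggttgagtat
Klra7: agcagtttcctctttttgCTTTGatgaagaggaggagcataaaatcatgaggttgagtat
Klra9: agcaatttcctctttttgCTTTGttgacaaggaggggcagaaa
Klra3: agcaatttcctctttttgCTTTGg
Klra4: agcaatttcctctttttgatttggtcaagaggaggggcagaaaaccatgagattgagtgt
Klra8: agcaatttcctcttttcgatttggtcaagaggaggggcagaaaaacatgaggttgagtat
The Klra6 stretch lies at chr6:130027019-130027078, Klra5 at chr6:129913260-129913319, Klra7 at chr6:130233357-130233416, Klra9 at chr6:130193113-130193155, Klra3 at chr6:130337627-130337650, Klra4 at chr6:130067296-130067355 and Klra8 at chr6:130129924-130129983. CTTTG was found in 4 of the 7 stretches and its reverse complement CAAAG in none. The 2 genes furthest below NK cells, Klra4 and Klra8, lacked it, but so did Klra5, which was higher, and Klra3 held it and was lower. Over 32851 RefSeq promoters the motif occurs on either strand in 14.2% of the 60-base windows that end 60 bases before the start site, and in 48.6% of the full 250 bases, and a match is a description of letters only. Tcf7 itself was at 226 CPM in control NK receptor T cells and 131 in NK cells, and at 195 and 103 in the KO (log2 ratios 0.79 and 0.92).

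Cytotoxic granule genes gave a mixed picture against NK cells. Of 15 genes 12 were measured in the control, 1 higher and 5 lower (median -0.55), and 13 in the KO, 3 higher and 4 lower (median -0.22). One of the higher KO genes, Gzmc, had UMIs in only 3 KO cells. Over all genes, 1.72% were higher and 3.19% lower in the control (median -0.03), and 3.28% and 2.58% in the KO (median -0.02). Gzma, a granzyme of mature NK cells, was at 658 CPM (601 to 719) against 2900 in the control and 751 (676 to 832) against 3035 in the KO, and was found in 18.9% and 16.7% of cells against 70.4% and 67.4%. A single KO cell held 71.4% of the Gzma UMIs and a single control cell 28.6%, and without cells that held an Ncr1 UMI the log2 ratio went from -2.14 to -2.99 in the control and from -2.01 to -6.15 in the KO. Prf1 (perforin) had -2.03 (-2.72 to -1.40) and -2.13 (-3.10 to -1.24). Gzma and Prf1 were thus both lower than in NK cells.

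Other effector genes were level with NK cells, higher, lower or different by library. Nkg7, a granule membrane protein, was at 1509 CPM against 1569 and 1650.3 against 1937. Gzmb had a log2 ratio of -0.56 (-0.82 to -0.30) in the control and 1.02 (0.67 to 1.38) in the KO. In the KO 10 cells held 84.4% of its UMIs, and it was found in 48.5% of cells against 47.8% of NK cells. Tnfsf10 (TRAIL), a death ligand, was higher in both, with 1.40 (0.84 to 1.99) and 1.66 (0.72 to 2.73). Ifng was 99.4 against 96.8 CPM in the control and 221 against 85.0 in the KO, where 1 cell held 52.8% of its UMIs. The chemokine Ccl3 was lower (-2.31 and -1.63), while its neighbour Ccl4 lay on opposite sides, with -1.66 (-1.86 to -1.46) and 0.73 (0.40 to 1.08). Serpinb9, an inhibitor of granzyme B, was lower in both, with -2.38 (-2.85 to -1.94) and -2.52 (-3.06 to -2.01).

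A few genes of T cell receptor signalling were higher than in NK cells, and others lower than in T cells without NK receptors. Of 16 genes 12 were measured in each library, and 3 were past 2-fold higher than in NK cells in the control (Lat, Cd28 and Thy1, median 0.52) and 2 in the KO (Lat and Thy1, median 0.47), with none lower. Against T cells without NK receptors 14 were measured, with 1 higher (Cd2) and 3 lower (Lat, Cd5 and Cd6) in the control, and 1 higher (Cd27) and 6 lower in the KO (both medians -0.03). Over all genes, 1.72% and 3.28% were past 2-fold higher than in NK cells in the control and the KO. Against T cells without NK receptors, 4.23% of all genes were higher and 4.63% lower in the control, and 6.25% and 5.94% in the KO. Lat, the adaptor that links the T cell receptor to downstream enzymes, was at 148 CPM against 60.01 in the control and 104 against 31.9 in the KO, but at 395 and 358 in T cells without NK receptors. Bcl11b, the factor that fixes T cell identity, also lay between the classes: 183 CPM in the control NK receptor T cells, 63.9 in NK cells and 535 in T cells without NK receptors, and 207, 88.5 and 530 in the KO. Of the T cell transcription factors measured, 9 in the control and 7 in the KO, Bcl11b was the only 1 past 2-fold above NK cells.

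A further set of genes was higher than in NK cells in both libraries and was not used by the rule. Ikzf2, which encodes the Ikaros family factor Helios, was at 469 CPM (420 to 521) against 63.9 in the control and 600.0 (533 to 673) against 113 in the KO. It was found in 73.6% and 78.8% of NK receptor T cells, 19.2% and 32.6% of NK cells, and 37.6% and 23.9% of T cells without NK receptors. Cd7, an immunoglobulin superfamily receptor, was at 548 CPM against 236 and 891 against 287. Il21r, the interleukin 21 receptor, had log2 ratios of 1.45 and 1.95. Of the remaining leading genes Gramd3 had 3.12 and 2.07, Tesc 2.62 and 1.68, Adgrl1 1.84 and 1.38, and the noncoding RNA Lockd 1.62 and 2.33.

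Some residency genes were higher than in NK cells, while genes of circulation went both ways. Itga1, the integrin alpha 1 that marks resident lymphocytes, was at 154 CPM (127 to 185) against 22.3 in control NK cells and 119 (90.2 to 154) against 28.3 in the KO, and was found in 46.6% and 45.5% of cells. Cxcr6, a chemokine receptor of resident cells, had log2 ratios of 1.29 (0.84 to 1.75) and 1.56 (0.89 to 2.29). Of the circulation and naive or central memory genes, 1 of 9 measured was past 2-fold higher than in NK cells in the control (Ly6c2) and 2 lower (median 0.51), and 2 of 8 were higher in the KO (Ly6c2 and S1pr1) and 2 lower (median 0.40). Klf2, a factor of recirculation, was lower in both libraries, with log2 ratios of -1.05 (-1.32 to -0.78) and -1.48 (-1.92 to -1.04). Of the 8 measured residency genes, 3 were past 2-fold higher in the control (Itga1, Cxcr6 and Cd69) and 2 in the KO, where Bhlhe40 was lower. The medians were 0.21 and -0.13, and the list summed to 1696 CPM against 1577 in control NK cells and 2177 against 2429 in the KO. Over all genes, 1.72% were higher than in NK cells and 3.19% lower in the control, and 3.28% and 2.58% in the KO. Ly6c2, a surface protein of memory-type CD8 T cells and monocytes, was also higher than in NK cells (2411 against 1192 CPM and 1446 against 616), with 17.7% of its 3′ windows shared with Ly6c1. In T cells without NK receptors the residency list summed higher, to 2289 CPM in the control and 4438 in the KO. Against those T cells Itga1 was past 2-fold higher in both libraries, and Cxcr6 past 2-fold lower in the control.

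Compared with T cells without NK receptors, NK genes were far higher. The 18 NK lineage genes, Klrb1c of the rule among them, summed to 4081 CPM (3936 to 4230) against 398 in the control and 4230 (4050 to 4417) against 354 in the KO. The comparison class was chosen for 0 UMIs of 5 NK receptor genes, and a gene near 0 there could pass the count minimum only by being high in NK receptor T cells, so no count of members is given and the sums are a description. Klre1 had log2 ratios of 6.10 (5.21 to 7.17) and 6.90 (5.53 to 8.78), and Cd244 (2B4), a SLAM family receptor, 5.53 (4.28 to 7.18) and 4.94 (3.67 to 6.59). Counts under 3 UMIs were set to 3 for a ratio, while intervals came from the counts themselves. Gzma had 8.04 (7.14 to 14.93) in the control against 1 UMI, and was at least 195-fold higher in the KO, where the T cells held 0. Cd7 had 4.50 and 5.63, and Itgax (CD11c) 4.70 and 4.42.

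The genes lower than in T cells without NK receptors included ones known from naive, type 2 and type 17 T cells. Il7r, the interleukin 7 receptor of naive and memory cells, was at 110 CPM (87.6 to 137) against 786 in the control and 182 (146 to 224) against 1000.2 in the KO. Ccr7, which guides naive T cells to lymph nodes, had log2 ratios of -3.87 (-4.95 to -2.97) and -3.88 (-4.96 to -2.97). The 12 genes of circulation and naive or central memory cells summed to 3525 CPM against 3290 in the control and 2625 against 3517 in the KO. Ly6c2 and Cxcr3 on this list were past 2-fold higher in both libraries. No count of its lower members is given, since some could pass the count minimum only through the T cells without NK receptors. The 13 genes of the innate-like T cell list summed to 189 CPM (159 to 224) against 1504 in the control and 104 (77.8 to 137) against 972 in the KO, with no count given, since members near 0 in NK receptor T cells could pass the minimum only through the other class. Among them Cd163l1, a scavenger receptor of gamma delta T17 cells, had 0 UMIs in control NK receptor T cells and 1 in the KO, against 327 and 105. Il1rl1, the interleukin 33 receptor of type 2 cells, had 10 UMIs, all in 1 control cell, and 0 in the KO, against 261 and 474.

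Between the libraries, 79 of 3906 measured genes were at least 2-fold higher in KO than in control NK receptor T cells (2.02%) and 76 at least 2-fold lower (1.95%). Among the genes found in at least 5 cells, Klra5 had the largest ratio outside the cell cycle. It had 27 UMIs in 9 of 148 control cells (6.08%, 2.82 to 11.2) and 211 UMIs in 32 of 66 KO cells (48.5%, 36.0 to 61.1), a log2 ratio of 3.55 (2.97 to 4.19), and 5.52% and 42.4% of thinned cells. No KO cell held more than 10.9% of these UMIs, and NK cells differed by 0.29 between the libraries. Klrb1a, another receptor of the NKR-P1 group, had 1.10 (0.49 to 1.72), and Cd96, a receptor for nectin ligands on T and NK cells, 1.44 (0.61 to 2.30). Klra9, which the rule did not use, differed little (0.30). Klra1 and Klra7 (-0.10) helped to choose the cells, so their ratios between the libraries are a description and no finding.

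The other 9 of the 10 leading genes were mostly genes of cell division. The list of 14 cell cycle genes shares Mki67, Top2a and Birc5 with these leading genes. In sum the 14 genes were at 1329 CPM (1247 to 1416) in the control cells and 3622 (3455 to 3795) in the KO cells. No count of members is given, since a gene near 0 in the control could pass the count minimum only through the KO. Mki67, a marker of dividing cells, had 38 UMIs in 12 control cells and 224 in 13 KO cells, or 8.11% (4.26 to 13.7) and 19.7% (10.9 to 31.3) of cells. Top2a had 41 and 176 UMIs in 10 and 9 cells, and Cenpf 7 and 79 in 3 and 5, and 1 KO cell held 55.7% of the latter. A few cells carried these genes: 1 KO cell held 38.4% of the Mki67 UMIs and 33.5% of those of Top2a. Leaving out the 12 and 13 cells with an Mki67 UMI, an alternative chosen after seeing the data, lowered the genes at least 2-fold higher from 79 to 41, and those higher than in KO NK cells from 84 to 45.

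Some effector genes were higher in the KO cells, in part through single cells. Gzmb was at 255 CPM (220 to 294) and 616 (549 to 690), in 39.9% and 48.5% of cells, and 1 KO cell held 31.9% of its UMIs. Gzmc had 3 UMIs in 3 control cells and 216 in 3 KO cells, 76.9% of them in 1. Xcl1, a chemokine that draws type 1 dendritic cells, was at 625 and 926 CPM, but the rule used it, so this is a description. Its median was 2 UMIs per control cell and 3 per KO cell, and 10 cells held 42.0% and 61.7% of its UMIs. Trac was at a log2 ratio of 0.88 (0.65 to 1.11) between the libraries, and 0.57 without cells that held an Mki67 UMI.

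**Figure D4:**
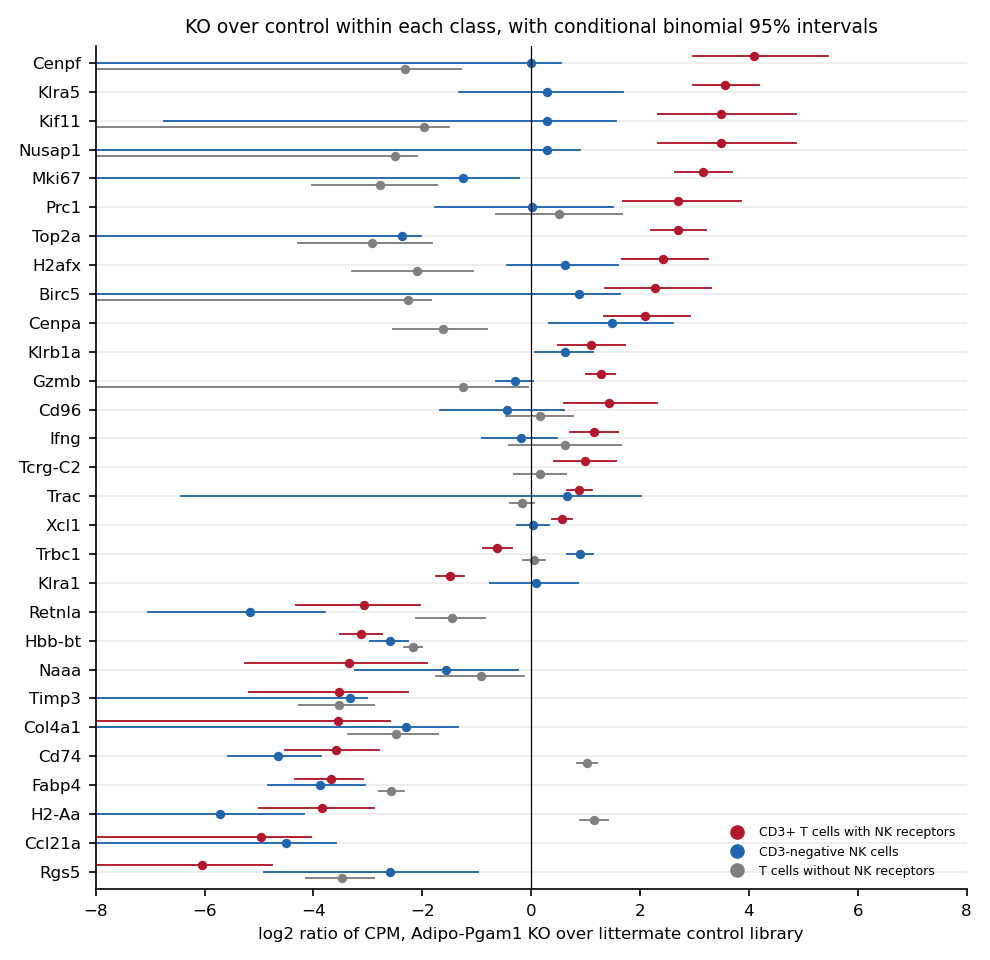
Log2 ratio of CPM, Adipo-Pgam1 KO over littermate control, for the 10 genes most different in each direction within NK receptor T cells and for selected receptor and effector genes, beside the same ratio in CD3-negative NK cells and in T cells without NK receptors; bars are exact conditional 95% intervals (counting error only), clipped at the axis limits, and counts under 3 UMIs were set to 3. Klra5 is at 3.55 in NK receptor T cells and 0.29 in NK cells, while Fabp4, H2-Aa and Cd74 are below -3 in both.

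The 10 genes that led among those lower in KO cells were all lower in KO than in control NK cells too, and several are known from other cell types. They included Rgs5 of pericytes (-6.05, with 97.0% of the control UMIs in 1 cell), Ccl21a of lymphatic endothelium (-4.96, in 6 control cells and 1 KO cell), the MHC class II genes H2-Aa (-3.84) and Cd74 (-3.59), and Fabp4 of endothelium and adipocytes (-3.68, and -3.87 in NK cells). Summed markers of several other cell types were higher in control than in KO NK receptor T cells: 949 against 102 CPM for 10 MHC class II and dendritic cell genes, 1235 against 223 for 10 endothelial and mural genes, 810 against 350.1 for 10 fibroblast and mesothelial genes, 484 against 270 for 10 macrophage and monocyte genes, and 10867 against 1788 for 10 neutrophil, mast and erythroid genes, of which the haemoglobin gene Hbb-bs gave 5247 and 997. The same sums in CD3-negative NK cells were 2746 and 131, 929 and 135, 716 and 393, 1379 and 938, and 16616 and 7239. In T cells without NK receptors the MHC class II and dendritic cell sum went the other way, at 818 and 1867. The other sums were higher in the control there too. Among control NK receptor T cells, 1 cell held most of the H2-Aa UMIs. The 4 measured genes of the neutrophil, mast and erythroid list were all haemoglobin genes. Of the markers on these lists, Ccl22, Fcgr1, S100a9, Cpa3, Mcpt4 and Ms4a2 were at 0 in the control NK receptor T cells. In the KO cells Csf1r, Cd14, Flt3, Cd209a, Zbtb46, Cdh5, Kdr, Msln, Upk3b, S100a8 and Retnlg were at 0. So were Ccl22, Fcgr1, Cpa3, Mcpt4 and Ms4a2. The part these transcripts play in the differences between the libraries was not tested.

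Pgam1 was measured in few of the cells. Its UMIs numbered 45 (control) and 23 (KO), or 61.3 CPM (44.7 to 82.0) and 47.1 (29.9 to 70.7), and was found in 26.4% and 27.3% of NK receptor T cells. The log2 ratio was -0.38 (-1.17 to 0.38), an interval that spans 0, so at this depth no difference could be detected. Of 11 measured glycolysis genes 0 were past 2-fold either way between the libraries (median 0.09, against -0.03 over all genes), and 0 of 11 and of 10 against NK cells. Over all genes, 2.02% were higher and 1.95% lower between the libraries, and no more than 3.28% either way against NK cells. Gapdh had 0.37 (0.14 to 0.61) and Ldha 0.04 (-0.30 to 0.38).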

How the data were processed

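Single-cell libraries of gWAT SVF were made with Chromium 3′ chemistry. The authors deposited counts, whole-number UMIs per gene and barcode, from Cell Ranger (3.0.1, mm10); the submitters' notes also list Seurat (3.1.5) and R (4.0.1). The values were raw, with no normalization.

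Barcodes were kept if they had 500 or more genes and mitochondrial UMIs of 10% or less. The classes were cut by UMI rules. UMIs were summed per class and library and given as CPM (Python 3.11.15, scipy 1.17.1). Intervals were exact Poisson (levels), Clopper-Pearson (shares) and conditional binomial (ratios), at 95%, for counting error only. Genes with at least 50 UMIs over both classes were measured. Without replicates, called genes were those past 2-fold, with counts under 3 set to 3. Named genes were the 12 with the largest ratio past 2-fold in both libraries and in at least 5 cells, 10 between libraries, and list members. Thinning drew 2000 UMIs per cell. Doublets were scored with Scrublet in scanpy (1.11.5) (the highest scores, 0.8% per 1000 barcodes, counted as high) and not removed. Scripts were tested on simulated data. The cells and lists were chosen with earlier results of these data known. Alternatives changed the cell filter, rule, count minimum, scaling (TMM, edgeR 4.0.16) and cells left out. Gene positions are from GENCODE vM21 (28416 of 28692 identifiers found), promoters from RefSeq. Some of these named genes are not reported here.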

Additional observations from a re-analysis of the deposited data

Results flagged for a closer look

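A few named genes lay past 2-fold in opposite directions in groups under the same contrast. The differences were not tested, since each group was 1 library. Against T cells without NK receptors, Ube2c, a ubiquitin-conjugating enzyme of mitosis, had log2 ratios of -3.41 in the control and 5.30 in the KO, and Cenpa, the centromere histone, -1.12 and 2.60.

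Between the libraries, KO over control, NK receptor T cells and CD3-negative NK cells went opposite ways for Stmn1 (1.78 and -1.27) and Top2a (2.69 and -2.38). Beside T cells without NK receptors the same held for more cell cycle genes: Ube2c (5.21 and -3.50), Cenpa (2.10 and -1.63), Mki67 (3.15 and -2.77), H2afx (2.43 and -2.10) and Top2a (2.69 and -2.93). MHC class II genes did so the other way round: H2-Ab1 (-2.40 and 1.33), H2-Aa (-3.84 and 1.15), H2-Eb1 (-2.98 and 1.77) and Cd74 (-3.59 and 1.03). Single cells carried much of these UMIs in NK receptor T cells, 78.4% of H2-Aa in 1 control cell and 38.4% of Mki67 in 1 KO cell.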

How the results depend on the processing

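With 1 library per genotype no library could be left out, and no difference between genotypes can be separated from a difference between libraries. No paired analysis was possible because each genotype had 1 library. Of 10702 values of named genes under the alternatives, 10063 stayed within the counting interval of the reported value, 618 left it and 21 that had been past 2-fold turned direction. Turns of smaller ratios were counted among the others. The log2 ratio to NK cells ran from 5.57 to 6.16 (control) and 4.65 to 6.36 (KO) for Trac, 2.72 to 3.11 and 3.23 to 4.02 for Klra6, and -4.95 to -3.41 and -4.31 to -3.41 for Itgam, and that of Klra5 between the libraries from 2.83 to 5.20. A rule of 3 or more CD3 or NK receptor UMIs, leaving out Xcl1, and TMM or median-of-ratios scaling moved no count of genes past 1.5 times. Depth limited ratios to genes with many UMIs, and single cells held much of the rest.

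Counts below give genes higher, then lower, than NK cells in the control, NK cells in the KO, T cells without NK receptors in the control and in the KO, and KO over control. A minimum of 20 UMIs gave 264 and 460, 312 and 289, 452 and 604, 543 and 539, and 220 and 351. No minimum gave 652 and 737, 563 and 908, 906 and 921, 1193 and 851, and 708 and 687. With the stricter cell filter of 1000 genes and 5% mitochondrial UMIs (30 and 16 cells left, fewer UMIs) they were 50 and 104, 47 and 25, 91 and 95, 105 and 110, with 28 lower in the KO. Leaving out cells with an Mki67 UMI, chosen after seeing the data, gave 45 higher than KO NK cells and 41 higher in KO than in control.

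NK receptor T cells made up 2.80% and 5.20% of kept cells under the looser filter of 200 genes and 20% mitochondrial UMIs, 1.63% and 3.72% with the stricter filter, and 2.27% and 4.49% without cells that held an Ncr1 UMI.

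Haemoglobin genes turned from lower to higher in the KO. With the looser filter the ratios to NK cells were 0.046 (Hba-a1), 0.22 (Hba-a2), 0.53 (Hbb-bs) and 1.77 (Hbb-bt), and to T cells without NK receptors 0.63, 0.81, 1.12 and 1.08. With the stricter filter the latter were 1.39 (Hba-a1), 1.83 (Hba-a2) and 1.58 (Hbb-bs). Without high doublet scores the ratios to NK cells were 0.53, 0.55, 0.64 and 0.0085, and as a mean of per-cell CPM Hbb-bt was 0.18 to NK cells and Hbb-bs 0.13 to T cells. In the control, Cd28 was -0.44 with the stricter filter, Rgs5 -2.58 without high doublet scores, and H2-Aa 0.38 and H2-Ab1 0.037 against NK cells that held an Ncr1 UMI. The cause was not tested.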

Other observations

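Immediate early genes, which are induced within minutes of activation or of tissue digestion, were lower in NK receptor T cells than in T cells without NK receptors. In sum the 14 genes of the list were at 3313 CPM (3182 to 3447) and 3751 (3581 to 3927), against 5227 and 10406. Of 12 measured, 5 were past 2-fold lower in the control, among them Fos, Fosb and Jun, and 8 in the KO (median log2 ratios -0.87 and -1.36, against 0.05 and 0.08 over all genes), and none was higher. Against NK cells 2 of 12 were lower in the control (Egr1 and Zfp36) and 0 of 10 in the KO. Over all genes, 3.19% and 2.58% were lower than in NK cells, and 4.63% and 5.94% than in T cells without NK receptors.

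Heat shock chaperones did not separate the classes and differed between the libraries. None of the measured ones was past 2-fold against either class, where no more than 6.25% of all genes were in either direction. In sum they were at 2727 CPM in control NK receptor T cells and 4488 in KO cells, at 2671 and 3740 in NK cells and at 2623 and 4153 in T cells without NK receptors. The co-chaperone Dnaja1 had a KO over control log2 ratio of 1.15 in NK receptor T cells and 1.12 in NK cells, and Hsph1 1.30 and 1.12.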
